A study of Mus musculus with 8 samples.

Results

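The interleukin-1 (IL-1) family and inflammasome genes described here are 10 genes, *Il1b*, *Il1rn*, *Il1r2*, *Il1rap*, *Il18*, *Il18bp*, *Casp1*, *Casp4*, *Nlrp3* and *Pycard*, chosen by name from 54188 genes in a table of RNA-seq read counts. All 10 were among the 17650 genes with enough reads to be tested. The RNA came from CD11b+ myeloid cells of sanroque mice, labelled female and 20 weeks old, which are homozygous for the san allele of Roquin on a C57BL/6 background and develop lupus-like autoimmunity. Cells were sorted into a Gr-1hi fraction, labelled G-MDSC (granulocytic myeloid-derived suppressor cells), and a Gr-1lo fraction, labelled M-MDSC (monocytic), from the spleen (SP) and from the bone marrow (BM). Each of the 4 groups has 2 libraries, numbered 5 and 6 (SP Gr-1hi), 7 and 8 (SP Gr-1lo), 9 and 10 (BM Gr-1hi), and 11 and 12 (BM Gr-1lo). Every group carries the san allele, so no value below compares mutant with wild-type cells, and SP fractions are set against the BM fractions sorted with the same gate. The sort is by surface markers, so each fraction can hold several cell types.

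IL-1β is made as an inactive precursor, and its gene *Il1b* is switched on in myeloid cells by inflammatory signals. An inflammasome, in which a sensor such as NLRP3 recruits the adaptor ASC (gene *Pycard*), activates caspase-1, which cuts the precursors of IL-1β and IL-18 to their active forms. Caspase-11, the product of mouse *Casp4*, senses bacterial lipopolysaccharide inside the cell. IL-1β signals through IL-1R1 and its partner IL-1RAcP (*Il1rap*), and is held back by the receptor antagonist IL-1Ra (*Il1rn*) and by the decoy receptor IL-1R2 (*Il1r2*), while IL-18 is bound and neutralised by IL-18BP (*Il18bp*). Transcript levels say nothing of whether a precursor was cut or secreted.

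Of the promoters of the members, those of *Il1b*, the gene with the widest span of levels, and of *Casp4* and *Nlrp3*, the members with a match to the NF-kB consensus motif, are printed here as the 250 bases before a RefSeq start site in GRCm38.p6. Each is given 5′ to 3′ on the strand of the gene, with NF-kB matches in capitals. The *Il1b* stretch is chr2:129371140-129371389 (minus strand), the *Casp4* stretch chr9:5308599-5308848 (plus strand) and the *Nlrp3* stretch chr11:59541319-59541568 (plus strand), the start site 2 of that gene in the RefSeq table.

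Il1b: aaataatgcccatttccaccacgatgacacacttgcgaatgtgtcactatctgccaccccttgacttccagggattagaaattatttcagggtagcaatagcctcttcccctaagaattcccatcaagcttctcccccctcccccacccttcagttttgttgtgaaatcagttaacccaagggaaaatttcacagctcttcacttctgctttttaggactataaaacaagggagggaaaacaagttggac

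Casp4: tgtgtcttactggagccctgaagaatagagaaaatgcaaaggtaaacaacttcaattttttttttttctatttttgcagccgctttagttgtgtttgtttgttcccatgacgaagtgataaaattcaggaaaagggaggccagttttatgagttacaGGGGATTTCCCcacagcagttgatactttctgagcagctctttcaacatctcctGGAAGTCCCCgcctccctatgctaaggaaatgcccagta

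Nlrp3: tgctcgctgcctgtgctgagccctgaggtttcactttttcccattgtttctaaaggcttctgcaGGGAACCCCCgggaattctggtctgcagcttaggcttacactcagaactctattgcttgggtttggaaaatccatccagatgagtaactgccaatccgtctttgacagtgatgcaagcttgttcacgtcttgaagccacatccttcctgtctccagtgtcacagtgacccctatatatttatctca

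The *Casp4* stretch holds 3 NF-kB matches, of which those at 93 to 84 and 92 to 83 bases before the start overlap and the other lies at 39 to 30 bases. The *Nlrp3* stretch holds 1, at 186 to 177 bases before the start. No NF-kB match was found in the 250 bases before start site 1 of *Nlrp3*. Searched on both strands of 32851 promoters of this length, the NF-kB consensus was found in 7.25%, TTCNNNGAA (the GAS motif of STAT factors) in 7.02%, TTGCNNAA (C/EBP) in 9.56%, GAGGAAG (PU.1) in 10.6% and the ISRE motif of interferon-regulated genes in 2.98%. Among the members, GAS was found for *Il1r2*, C/EBP for *Il18bp* and *Pycard*, PU.1 for *Pycard* and for start site 1 of *Nlrp3*, and ISRE for none. A match is a run of letters and not a measured binding site, and the absence of one from the *Il1b* stretch covers only these letters in this window.

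The libraries held 33453580 to 68316154 counted reads, so that 3 reads, the limit that a count of 0 allows, equalled 0.0348 to 0.124 CPM (counts scaled to library size). For the markers of the gate, *Ly6g* was at 330.0 to 801 CPM in Gr-1hi and 3.07 to 8.23 CPM in Gr-1lo libraries, and *Itgam* (CD11b) was at 734 CPM or more in all 8. *Csf1r* (CD115), a monocyte and macrophage receptor that the gate did not use, was lower in Gr-1hi than in Gr-1lo cells of either tissue. *Xist*, made from the inactive X of female cells, was at 363 CPM in library 5 and 209 CPM in library 7, and at 0.102 CPM or less in the other 6. *Ddx3y*, a Y-linked gene, was at 0 reads in library 5 and at 33.7 to 82.6 CPM in the other 7, so library 7 carried reads of both genes and 6 libraries go against their female label. For the members and the named pathway genes, results whose call or sign changed without both libraries 5 and 7 are therefore given also in that form. Libraries of one group differed by more than read sampling. The chi-square of their counts, divided by its degrees of freedom, was 66.7 for libraries 5 and 6 and 18.9 to 21.3 for the other pairs.

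A gene was called when its adjusted p was at most 0.05 and its fold change (FC) at least 2 in edgeR's quasi-likelihood test, with a stricter call of adjusted p below 0.01 and FC above 8 for Gr-1hi against Gr-1lo. All FCs below are log2 values with their standard error (SE), and levels are CPM, normalised with TMM factors. The study states that its libraries are independent biological replicates, while the labels do not say which mouse gave which library.

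In both tissues, the Gr-1hi cells held more transcript than the Gr-1lo cells for IL-1β, its antagonist and decoy receptor, the IL-18 binding protein, *Il1rap*, *Nlrp3* and *Casp4*, and less for the adaptor *Pycard*. In BM, 7 of the 10 members rose and 1 fell, while 24.2% of all tested genes rose and 33.1% fell. In SP, again 7 rose and 1 fell, against 22.3% and 27.4% of all tested genes. The stricter call held for 4 members in BM (*Il1b*, *Il1rn*, *Il1r2* and *Il18bp*) and for 4 in SP (*Il1b*, *Il1rn*, *Il1r2* and *Il1rap*), all higher, where 6.56% of all genes in BM and 4.44% in SP were called higher, and 10.1% and 2.93% lower. The median member FC was 1.81 in BM and 2.26 in SP, beside -0.17 and -0.09 for all tested genes. Scaling by DESeq2-type size factors (RLE) moved the latter to -0.03 and 0.04 and left the member counts at 7 and 1 in both tissues.

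**Figure D1:**
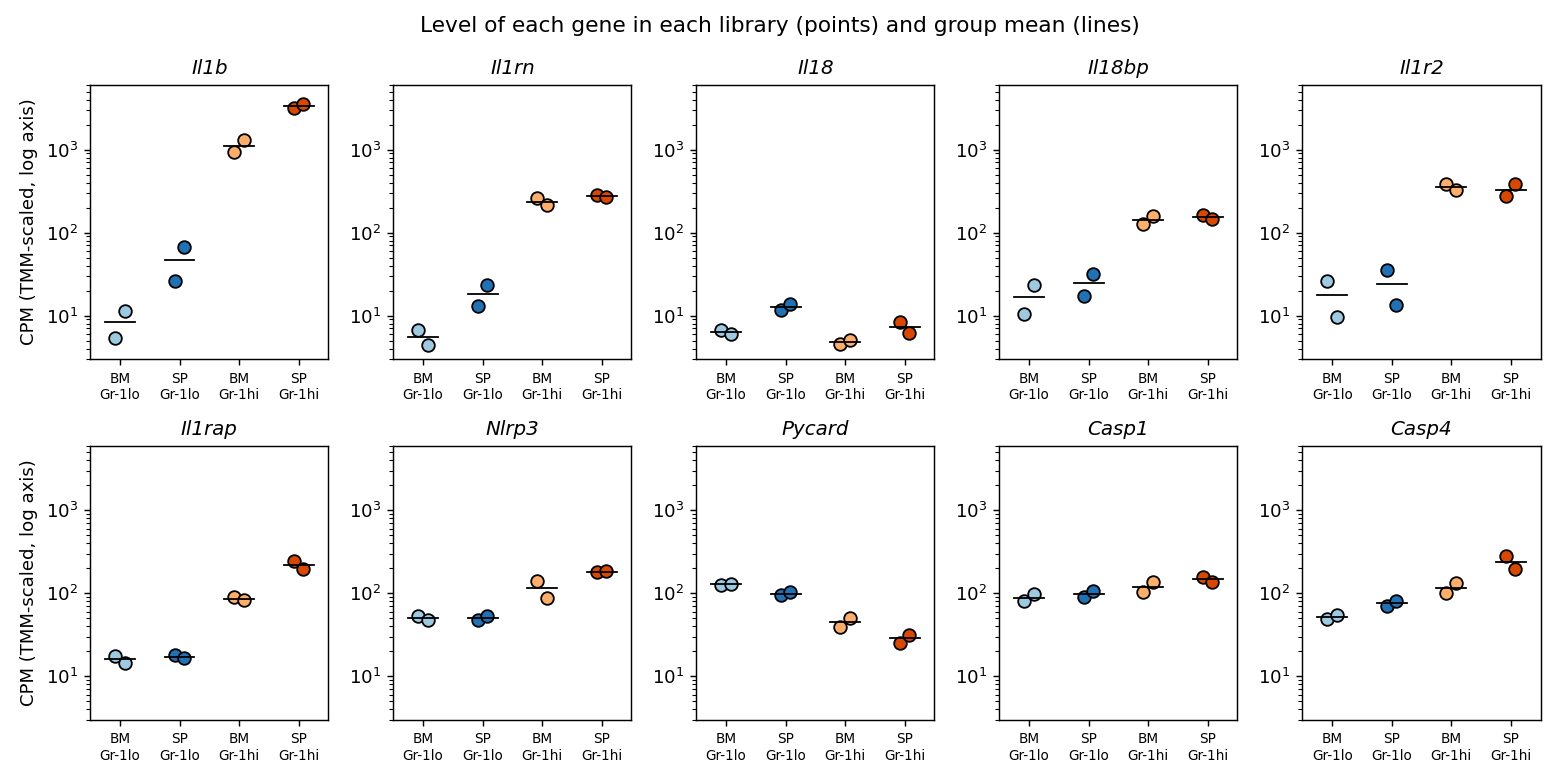
CPM of the 10 members in each of the 8 libraries on a log scale, with 1 panel per gene, points for libraries and bars for group means of 2 libraries. *Il1b* spans 5.45 to 3510 CPM, while *Pycard* is higher in every Gr-1lo library than in any Gr-1hi library.

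Among the ligands, *Il1b* (chr2:129364570-129371139, minus strand, GRCm38) was at 3135 and 3510 CPM in SP Gr-1hi, 922 and 1301 in BM Gr-1hi, 26.4 and 67.9 in SP Gr-1lo, and 5.45 and 11.4 in BM Gr-1lo. The 4 groups did not overlap, and followed the order SP Gr-1hi, BM Gr-1hi, SP Gr-1lo, BM Gr-1lo. *Il1b* was 131-fold higher in Gr-1hi than in Gr-1lo cells of the BM (log2 FC 7.04, SE 0.65, adjusted p = 8.85e-05) and 70.2-fold higher in SP (6.13, SE 0.62, adjusted p = 0.000171). The BM difference was 200.4-fold without library 12, and the SP difference 124-fold without library 8 and 48.0-fold without library 7. Between tissues the tests did not pass. SP against BM gave 2.48 (SE 0.54, adjusted p = 0.0580) in Gr-1lo and 1.58 (SE 0.51, adjusted p = 0.0572) in Gr-1hi cells. The Gr-1lo difference was called with DESeq2 (2.41, adjusted p = 0.00145) and without SP Gr-1lo library 7 (3.01, adjusted p = 0.0143). It was 1.65 (adjusted p = 0.161) without library 8, 3.12 (adjusted p = 0.123) without library 12 and 2.99 (adjusted p = 0.138) without both libraries 5 and 7, and its adjusted p ranged from 0.00145 to 0.224 over 14 alternatives. The Gr-1hi difference was called with DESeq2 (adjusted p = 0.0372), with limma on quantile-normalized TPM (0.0415), without library 7 (0.0202) or 8 (0.0207), and in a fit of only the 4 Gr-1hi libraries (0.00359), over an adjusted p range of 0.00359 to 0.239. Without both libraries 5 and 7 it was 1.67 (adjusted p = 0.164).

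*Il18* (chr9:50554827-50581840, plus strand) was low in every group and had the opposite order of fractions. It was at 11.5 and 13.9 CPM in SP Gr-1lo, 8.38 and 6.22 in SP Gr-1hi, 6.64 and 6.01 in BM Gr-1lo, and 4.56 and 5.08 in BM Gr-1hi. The SP Gr-1lo libraries were the highest, and those of SP Gr-1hi and BM Gr-1lo overlapped. *Il18* rose in SP against BM Gr-1lo cells (1.01, SE 0.18, adjusted p = 0.0132), just past the 2-fold limit. The call was lost with RLE scaling (0.95) and DESeq2 (0.94), which put it below that limit, and without library 8 (0.87, adjusted p = 0.124), 11 (1.08, adjusted p = 0.0703) or 12 (0.94, adjusted p = 0.124). Without both libraries 5 and 7 the Gr-1lo value was 1.13. In Gr-1hi cells SP against BM gave 0.60 (SE 0.19, adjusted p = 0.0418), below 2-fold. That value was 0.29 without library 5 and 0.38 without both libraries 5 and 7. Gr-1hi against Gr-1lo gave -0.80 (SE 0.18, adjusted p = 0.00352) in SP and -0.39 (SE 0.19, adjusted p = 0.0894) in BM. The SP difference passed 2-fold without library 5 (-1.06) and without both libraries 5 and 7 (-1.18).

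The IL-1 receptor antagonist gene *Il1rn* (chr2:24336853-24351494, plus strand) was at 284 and 270 CPM in SP Gr-1hi and 258 and 214 in BM Gr-1hi. It was at 13.2 and 23.4 CPM in SP Gr-1lo and 6.70 and 4.42 in BM Gr-1lo. *Il1rn* was thus close between tissues in the Gr-1hi fraction and apart in the Gr-1lo fraction. The Gr-1hi cells of the BM stood 5.41 above their Gr-1lo cells (SE 0.33, adjusted p = 2.69e-06) and those of the SP 3.92 (SE 0.30, adjusted p = 1.47e-05). Between tissues, *Il1rn* rose in SP Gr-1lo cells (1.73, SE 0.29, adjusted p = 0.0147), and the Gr-1hi difference was 0.23 (SE 0.27, adjusted p = 0.539). Without both libraries 5 and 7 the Gr-1lo value was 2.06. The Gr-1lo call was lost without a filter on low counts (adjusted p = 0.116), on quantile-normalized TPM (0.0536), in the fit of 4 libraries (0.0610), and without library 5 (0.0711), 6 (0.0702) or 12 (0.0987), the FC staying between 1.26 and 2.08 over all 14 alternatives.

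*Il18bp* (chr7:102014885-102018690, minus strand) was at 164 and 145 CPM in SP Gr-1hi, 126 and 158 in BM Gr-1hi, 17.4 and 31.4 in SP Gr-1lo, and 10.6 and 23.2 in BM Gr-1lo. The tissues overlapped within each fraction, and the fractions did not overlap. Between fractions, BM gave 3.07 (SE 0.44, adjusted p = 0.000655) and SP 2.65 (SE 0.43, adjusted p = 0.00139), the latter not called without both libraries 5 and 7 (2.18, adjusted p = 0.0825) and the former 3.73 without library 12. SP against BM gave 0.54 (SE 0.41, adjusted p = 0.525) in Gr-1lo and 0.12 (SE 0.40, adjusted p = 0.847) in Gr-1hi cells.

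Of the receptors, the decoy receptor gene *Il1r2* (chr1:40074079-40125231, plus strand) was at 274 and 380 CPM in SP Gr-1hi and 385 and 324 in BM Gr-1hi, against 35.0 and 13.5 in SP Gr-1lo and 25.9 and 9.50 in BM Gr-1lo. It was higher in every Gr-1hi library, and SP and BM overlapped in both fractions. The BM difference was 4.32 (SE 0.68, adjusted p = 0.00155) and the SP difference 3.76 (SE 0.66, adjusted p = 0.00283). The former was 5.19 without library 11, and the latter 4.58 without library 7 and 4.80 without both libraries 5 and 7, with every value called. SP against BM gave 0.44 (SE 0.60, adjusted p = 0.739) in Gr-1lo and -0.12 (SE 0.59, adjusted p = 0.899) in Gr-1hi cells, values whose sign changed when single libraries were left out.

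*Il1rap* (chr16:26581704-26730117, plus strand) encodes the accessory chain shared by the receptors for IL-1, IL-33 and IL-36. It was at 248 and 195 CPM in SP Gr-1hi, 89.8 and 82.3 in BM Gr-1hi, 18.1 and 16.4 in SP Gr-1lo, and 17.7 and 14.3 in BM Gr-1lo. Here the SP libraries stood above those of BM in the Gr-1hi fraction, and the tissues overlapped in the Gr-1lo fraction. SP against BM gave 1.36 (SE 0.14, adjusted p = 0.000431) in Gr-1hi, called under all 14 alternatives with values of 1.10 to 1.45, and 0.11 (SE 0.15, adjusted p = 0.729) in Gr-1lo cells. Between fractions, SP gave 3.68 (SE 0.16, adjusted p = 5.36e-07) and BM 2.43 (SE 0.15, adjusted p = 1.22e-06).

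The sensor gene *Nlrp3* (chr11:59541568-59566956, plus strand) was at 182 and 183 CPM in SP Gr-1hi, 141 and 89.0 in BM Gr-1hi, 47.7 and 53.0 in SP Gr-1lo, and 52.8 and 47.4 in BM Gr-1lo. It was higher in all Gr-1hi libraries, and the BM Gr-1hi pair stood apart from each other. Gr-1hi exceeded Gr-1lo cells by 1.86 in SP (SE 0.19, adjusted p = 4.08e-05) and by 1.20 in BM (SE 0.19, adjusted p = 0.000435). The BM value was below 2-fold without library 9 (0.88) and on quantile-normalized TPM (0.88). Between tissues, Gr-1hi cells gave 0.67 (SE 0.19, adjusted p = 0.0262), below 2-fold, and Gr-1lo cells 0.01 (SE 0.19, adjusted p = 0.987).

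The adaptor gene *Pycard* (chr7:127989708-127993867, minus strand) was the member called lower in Gr-1hi cells. It was at 25.4 and 31.8 CPM in SP Gr-1hi, 39.0 and 50.7 in BM Gr-1hi, 95.0 and 103 in SP Gr-1lo, and 125 and 130 in BM Gr-1lo. The 4 groups did not overlap, and SP was below BM in both fractions. Gr-1hi against Gr-1lo gave -1.79 in SP (SE 0.15, adjusted p = 1.05e-05) and -1.51 in BM (SE 0.15, adjusted p = 1.86e-05), called under all alternatives. SP against BM gave -0.65 (SE 0.15, adjusted p = 0.0115) in Gr-1hi and -0.37 (SE 0.14, adjusted p = 0.203) in Gr-1lo cells, neither of them past 2-fold.

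Of the caspases, *Casp4* (chr9:5308828-5336783, plus strand), whose promoter is shown above, was at 284 and 195 CPM in SP Gr-1hi, 102 and 133 in BM Gr-1hi, 70.6 and 80.8 in SP Gr-1lo, and 49.6 and 54.9 in BM Gr-1lo. The groups did not overlap. *Casp4* rose in Gr-1hi against Gr-1lo cells by 1.17 (SE 0.19, adjusted p = 0.000615) in BM, where it was below 2-fold on quantile-normalized TPM (0.84), and by 1.66 (SE 0.20, adjusted p = 9.10e-05) in SP. It also rose in SP against BM Gr-1hi cells (1.03, SE 0.19, adjusted p = 0.00557). That value was below 2-fold with RLE scaling (0.96) and DESeq2 (0.97), without library 5 (0.65) or 9 (0.77), and without both libraries 5 and 7 (0.75). In Gr-1lo cells SP against BM gave 0.53 (SE 0.19, adjusted p = 0.173).

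*Casp1* (chr9:5298517-5307265, plus strand), next to *Casp4* on chromosome 9, moved the least between fractions of the members placed in an inflammasome. It was at 159 and 137 CPM in SP Gr-1hi, 103 and 137 in BM Gr-1hi, 89.2 and 108 in SP Gr-1lo, and 80.8 and 97.0 in BM Gr-1lo. The libraries of the 4 groups lay within a narrow range, and the tissues overlapped in both fractions. Gr-1hi against Gr-1lo gave 0.59 (SE 0.16, adjusted p = 0.0115) in SP and 0.43 (SE 0.17, adjusted p = 0.0403) in BM, both below 2-fold, and the BM value turned to -0.03 on quantile-normalized TPM. SP against BM gave 0.30 (SE 0.16, adjusted p = 0.189) in Gr-1hi and 0.15 (SE 0.16, adjusted p = 0.671) in Gr-1lo cells.

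**Figure D2:**
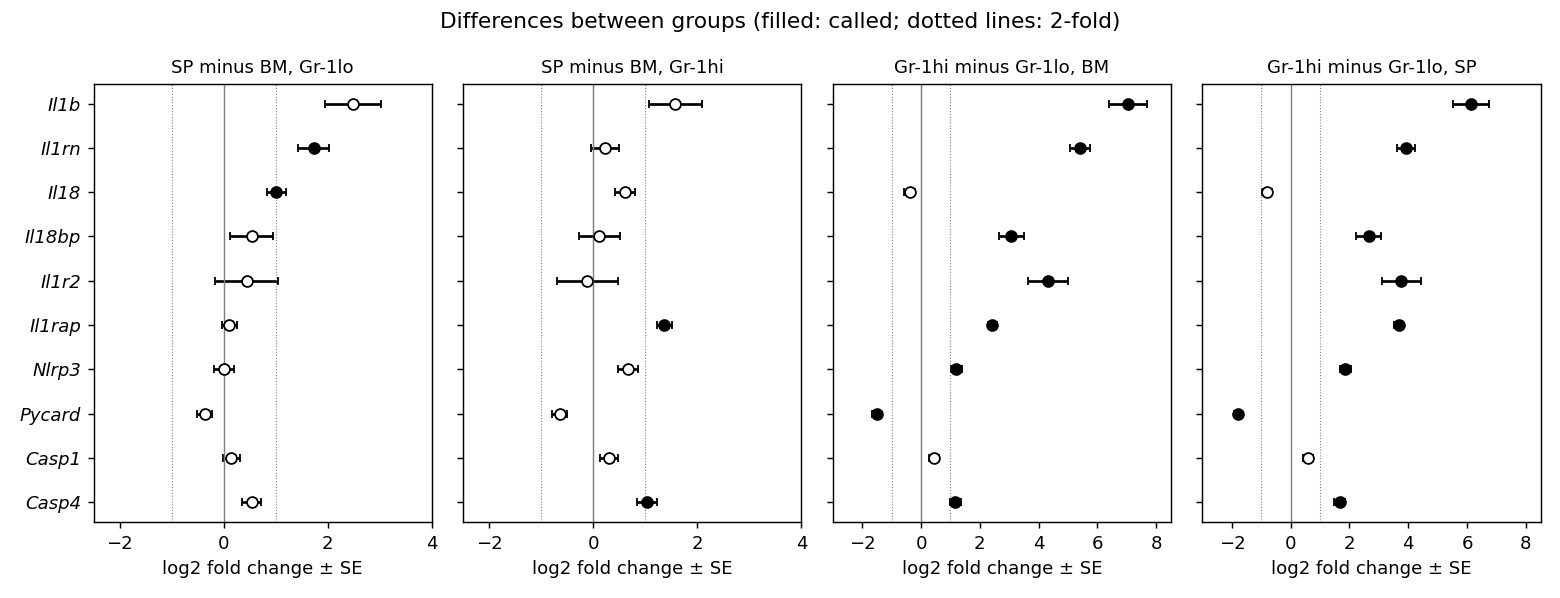
Log2 FC of each member with bars of 1 SE for the 4 comparisons of 2 groups, with filled points for genes called. In the Gr-1hi against Gr-1lo panels *Il1b* has the highest value (7.04 in BM and 6.13 in SP) and *Pycard* the lowest (-1.51 and -1.79), while the SP against BM panels lie between -0.65 and 2.48.

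Compared per length, as mean CPM per kilobase of exon, *Il1b* was the most abundant member in Gr-1hi cells, at 1742 in SP and 583 in BM, followed by *Il1r2* (171 and 186) and *Casp1* (98.9 and 80.2), with *Il18* lowest (7.08 and 4.67). In Gr-1lo cells *Casp1* led (65.7 in SP and 59.4 in BM). In SP Gr-1lo it was followed by *Pycard* (26.1) and *Il1b* (24.7), where the 2 libraries of *Il1b* lay on either side of *Pycard*. In BM Gr-1lo *Pycard* followed (33.6) and *Il1b* was at 4.43. The lowest was *Il1rap* in SP (1.52) and *Il1rn* in BM (1.004). The length of a gene joined the exons of all its annotated transcripts, 1497 bases for *Casp1* and 3800 for *Pycard*, and the order depends on it. Before division by length, mean CPM in BM Gr-1lo was 128 for *Pycard* and 88.9 for *Casp1*. In SP Gr-1lo these means were 99.0 and 98.4.

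Across tissues, 2 of 10 members rose in SP against BM Gr-1lo cells (*Il1rn* and *Il18*) and 0 fell, where 3.84% of all tested genes rose and 0.215% fell. In Gr-1hi cells 2 of 10 rose (*Il1rap* and *Casp4*) and 0 fell, against 14.0% and 1.48% of all tested genes. With the adjusted p alone, 2 members were higher in Gr-1lo cells, and in Gr-1hi cells 4 were higher and 1, *Pycard*, lower. In either direction, 984 of the 17650 tested genes passed that threshold in Gr-1lo and 5998 in Gr-1hi cells. The median member FC was 0.49 in Gr-1lo and 0.45 in Gr-1hi cells, beside -0.01 and 0.03 for all tested genes. Without both libraries 5 and 7, the Gr-1hi FC was 1.19 for *Il1rap* and 0.75, below 2-fold, for *Casp4*.

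Markers of other cells moved with tissue. In bulk samples, fewer cells of a type and less RNA per cell cannot be told apart. Of 8 B cell markers, 8 rose in SP against BM Gr-1hi cells and 7 in Gr-1lo cells, and their summed level was 339 to 501 CPM in SP Gr-1hi, 62.5 to 78.8 in SP Gr-1lo, 14.3 to 17.8 in BM Gr-1hi and 7.85 to 9.69 in BM Gr-1lo. Of 8 splenic macrophage markers, 6 rose in Gr-1hi (143 to 147 CPM in SP, 50.3 to 67.1 in BM) and 7 in Gr-1lo cells (80.5 to 88.1 and 51.8 to 60.3). Of 7 mature neutrophil markers, 0 were called in Gr-1lo cells, with a sum of 2683 to 3171 CPM in SP and 1770 to 1826 in BM, and 2 fell in Gr-1hi cells, with 37554 to 43210 against 61834 to 62180 CPM. Of 4 erythroid markers, 3 rose in SP Gr-1lo and 4 in SP Gr-1hi cells, with a sum of 92.1 and 128 CPM in SP Gr-1lo against 4.26 and 4.44 in BM Gr-1lo, and of 118 (library 5) and 405 (library 6) in SP Gr-1hi against 20.4 and 23.98 in BM Gr-1hi. Markers of plasma cells, T and NK cells and dendritic cells were also called higher in SP, 3, 6 and 1 of them in Gr-1lo and 3, 6 and 2 in Gr-1hi cells, where 1 dendritic cell marker fell. Of 7 immature granulocyte markers, 2 rose and 1 fell in SP Gr-1lo cells, while 0 rose and 3 fell in SP Gr-1hi cells, where the sum was 23536 CPM in library 5 and 42962 in library 6 against 51596 and 59652 CPM in BM. Of 5 eosinophil and basophil markers, 0 rose and 1 fell in Gr-1lo, and 1 rose and 1 fell in Gr-1hi cells. Of 7 monocyte markers, 1 rose and 0 fell in SP against BM in each fraction. Their sum was 6374 and 6237 CPM in SP Gr-1lo against 9526 and 8497 in BM Gr-1lo. In Gr-1hi cells it was 1063 and 1185 CPM in SP against 1379 and 1787 in BM. The plasma cell marker *Tnfrsf17* was at 0 in both BM Gr-1hi libraries. The part of these cells in the SP against BM values of the members was not tested.

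The fractions also differed in makeup. All 7 mature neutrophil markers were higher in Gr-1hi cells of either tissue, and of 7 monocyte markers 5 were lower and 1 was higher, their sum being 1063 to 1787 CPM in Gr-1hi and 6237 to 9526 CPM in Gr-1lo libraries. Of 7 immature granulocyte markers, 3 rose and 4 fell in Gr-1hi cells of each tissue, with a median FC of -5.92 in BM and -6.61 in SP. The stricter call held for 3 higher and 4 lower in BM, and for 1 higher and 4 lower in SP. Of the B cell markers, 5 of 8 rose and 1 fell in Gr-1hi cells of the BM and 8 rose in those of the SP, of T and NK cell markers 6 rose and 1 fell in each tissue, and of splenic macrophage markers 6 rose and 1 fell in BM and 4 rose in SP. The part of this makeup in the Gr-1hi against Gr-1lo values of the members cannot be told apart from the gate.

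Whether the difference between fractions itself differed between tissues was tested as an interaction, the Gr-1hi against Gr-1lo FC in SP minus that in BM. *Il1rap* had a larger difference in SP (1.25, SE 0.20, adjusted p = 0.00727) and *Il1rn* a smaller one (-1.50, SE 0.39, adjusted p = 0.0417), where 7.74% of all tested genes were called higher and 2.00% lower. The *Il1rap* value was below 2-fold without library 5 (0.97). The *Il1rn* call was lost with no filter on low counts, on quantile-normalized TPM and without library 5, 6, 8, 9 or 12, at adjusted p values of 0.0852 to 0.228. For *Il1b* the interaction was -0.90 (SE 0.72, adjusted p = 0.440).

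Ligand and antagonist were set side by side as the log2 ratio of their reads within a library, which is free of scaling but not of gene length, so that ratios are comparable between libraries and not against 0. *Il1b* over *Il1rn* was 3.46 and 3.70 in SP Gr-1hi, 1.84 and 2.60 in BM Gr-1hi, 0.997 and 1.54 in SP Gr-1lo, and -0.30 and 1.37 in BM Gr-1lo. SP Gr-1hi stood above all other libraries (mean 3.58, SD 0.17, n = 2), and the Gr-1lo libraries of the tissues overlapped. *Il18* over *Il18bp* was -4.29 and -4.54 in SP Gr-1hi, -4.78 and -4.96 in BM Gr-1hi, -0.59 and -1.18 in SP Gr-1lo, and -0.67 and -1.95 in BM Gr-1lo. This ratio was lower in every Gr-1hi than in every Gr-1lo library. With 2 libraries per group these ratios are given without a test.

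**Figure D3:**
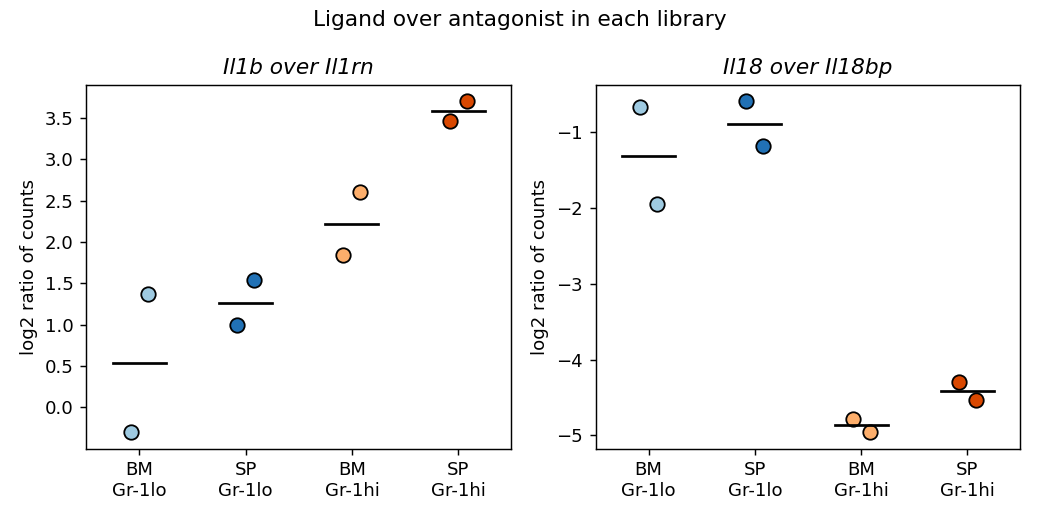
Log2 ratio of read counts for *Il1b* over *Il1rn* and for *Il18* over *Il18bp*, with 1 point per library and a bar for the mean of 2 libraries in each group. The *Il1b* over *Il1rn* ratio is highest in SP Gr-1hi (mean 3.58) and the *Il18* over *Il18bp* ratio lowest in BM Gr-1hi (mean -4.87).

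Beyond the 10 members, 43 other genes of the pathway were listed, of which 38 were tested. In Gr-1hi against Gr-1lo cells 13 rose and 9 fell in BM, and 11 rose and 4 fell in SP, where the shares of all tested genes were 24.2% and 33.1% in BM and 22.3% and 27.4% in SP. The stricter call held for 7 higher and 3 lower in BM, beside 6.56% and 10.1% of all tested genes. In SP it held for 6 higher and 0 lower, beside 4.44% and 2.93%. From BM to SP, 3 rose and 0 fell in Gr-1lo and 8 rose and 0 fell in Gr-1hi cells, beside 3.84% and 14.0% of all tested genes that rose. The median FC was 0.27 in BM and 0.29 in SP between fractions, and 0.10 in Gr-1lo and -0.03 in Gr-1hi cells between tissues.

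Of 7 other ligand genes, 3 were tested, and all 3 were higher in Gr-1hi cells of both tissues. The share of all tested genes that rose was 24.2% in BM and 22.3% in SP. *Il1f9*, which encodes the neutrophil-linked cytokine IL-36γ, was at 581 and 486 CPM in SP Gr-1hi, 598 and 508 in BM Gr-1hi, 19.3 and 13.8 in SP Gr-1lo, and 9.53 and 8.86 in BM Gr-1lo. Between fractions it differed by 5.91 in BM (SE 0.20, adjusted p = 1.41e-07) and by 5.02 in SP (SE 0.19, adjusted p = 4.59e-07), and SP against BM Gr-1hi gave -0.05 (SE 0.16, adjusted p = 0.832). *Il1a*, the gene of IL-1α, was scarce, with 48 and 37 reads in SP Gr-1hi, 10 and 38 in SP Gr-1lo, 5 and 3 in BM Gr-1hi, and 0 and 1 in BM Gr-1lo. It was called higher in SP in both fractions (3.05, SE 0.57, adjusted p = 0.00526 in Gr-1hi). The counting intervals that follow pool the reads of a group, and cover read sampling but not the spread between libraries. In Gr-1lo cells the ratio of 48 reads in SP to 1 in BM, scaled for depth, was 5.19 on the log2 scale, with an exact 95% counting interval of 2.64 to 10.52, and the call was lost without library 8, 11 or 12 (adjusted p = 0.0633 to 0.105). Between fractions of the BM the ratio of 8 reads to 1 was 4.0 (interval 1.10 to 9.47), with the call lost without library 9 (adjusted p = 0.0721) or 11 (adjusted p = 0.0608), and in SP the call was lost without both libraries 5 and 7 (1.39, adjusted p = 0.0946).

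Of 6 other receptor genes, 3 rose and 2 fell in Gr-1hi cells of the BM, beside 24.2% and 33.1% of all tested genes. In SP 3 rose and 1 fell, beside 22.3% and 27.4%. *Il18r1* and *Il18rap* encode the chains of the IL-18 receptor. *Il18rap* was at 732 and 747 CPM in SP Gr-1hi, 933 and 919 in BM Gr-1hi, 67.0 and 68.9 in SP Gr-1lo, and 49.9 and 52.2 in BM Gr-1lo. *Il18r1* was at 86.7 and 87.1, 94.4 and 96.9, 5.59 and 6.63, and 1.11 and 1.70 CPM in the same order of groups. Both had their highest values in BM Gr-1hi and their lowest in BM Gr-1lo. SP against BM Gr-1hi gave -0.14 (SE 0.14, adjusted p = 0.491) for *Il18r1* and -0.33 (SE 0.08, adjusted p = 0.0135) for *Il18rap*, both below 2-fold. *Il18r1* rose in SP against BM Gr-1lo cells (2.12, SE 0.18, adjusted p = 0.000450) and kept that call under all 14 alternatives. *Il1r1*, the signalling receptor for IL-1, lay between 0.330 and 1.31 CPM in all 8 libraries and was called in no comparison.

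Of 10 genes of MyD88 and IRAK signalling, which act below these receptors, 3 rose in Gr-1hi cells of the BM and 1 in SP, and 0 fell. Genes that rose made up 24.2% of all tested genes in BM and 22.3% in SP, and those that fell 33.1% and 27.4%. *Irak2* rose in both, by 1.65 in BM (SE 0.11, adjusted p = 1.49e-06) and by 1.58 in SP (SE 0.11, adjusted p = 3.47e-06). *Irak3*, whose product restrains the pathway, and *Irak4* rose in BM (1.31, SE 0.10 and 1.18, SE 0.08), both below 2-fold on quantile-normalized TPM (0.99 and 0.90). In SP their values were 0.66 and 0.998, the latter at a fold of 1.997 and so short of the limit. *Myd88* was at 491 and 370 CPM in SP Gr-1hi and 171 to 260.3 CPM in the other 6 libraries. It was not called, its SP difference between fractions (0.97, SE 0.13, adjusted p = 0.000140) passing 2-fold with RLE scaling (1.11), with DESeq2 (1.07) and without library 6 (1.14).

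Among 11 tested sensors and partners other than *Nlrp3*, 1 rose and 4 fell in Gr-1hi cells of the BM, beside 24.2% and 33.1% of all tested genes. In SP 1 rose and 1 fell, beside 22.3% and 27.4%. The one that rose, *Nlrp12*, which encodes an NLR protein of myeloid cells, was at 436 and 293 CPM in SP Gr-1hi and 254 and 199 in BM Gr-1hi, against 2.61 to 3.93 CPM in the Gr-1lo libraries. Its FC was 6.60 in SP (SE 0.24, adjusted p = 4.24e-07) and 6.35 in BM (SE 0.24, adjusted p = 1.90e-07). *Nlrc4*, the sensor partner of the NAIP proteins, was lower in Gr-1hi cells (-4.14 in BM, SE 0.26, adjusted p = 1.48e-06, and -2.64 in SP, SE 0.23, adjusted p = 1.22e-05). *Nlrp1a*, *Nlrp1b* and the DNA sensor gene *Aim2* fell in BM (-1.47, -1.48 and -1.19), the *Nlrp1b* value not past 2-fold on quantile-normalized TPM (-0.70) and the *Aim2* value not without library 10 (-0.93). Paralogs such as *Nlrp1a* and *Nlrp1b* can share reads, so that their split is uncertain.

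Among these sensors, 3 rose in SP against BM Gr-1hi cells, where 14.0% of all tested genes rose. *Mefv*, which encodes pyrin, was at 248 and 164 CPM in SP Gr-1hi, 57.4 and 50.2 in BM Gr-1hi, 134 and 137 in SP Gr-1lo, and 105 and 105 in BM Gr-1lo. The SP Gr-1hi libraries were the highest and the BM Gr-1hi libraries the lowest, with an FC of 1.94 (SE 0.18, adjusted p = 0.000285). *Nlrp1b* rose by 1.57 (SE 0.16, adjusted p = 0.000396). *Nlrc4* rose by 1.63 (SE 0.28, adjusted p = 0.00373), from 1.12 and 1.78 CPM in BM to 5.33 and 3.54 CPM in SP, and was below 2-fold on quantile-normalized TPM (0.74).

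Of 8 effectors and upstream channels, 3 rose and 3 fell in Gr-1hi cells of the BM, beside 24.2% and 33.1% of all tested genes. In SP 3 rose and 2 fell, beside 22.3% and 27.4%. *Gsdmd*, which encodes the pore-forming protein cut by caspase-1 and caspase-11, was at 194 to 215 CPM in Gr-1hi and 109 to 127 CPM in Gr-1lo libraries, with FCs of 0.87 (SE 0.09) in BM and 0.70 (SE 0.09) in SP that were below 2-fold. The BM value reached 2-fold with RLE scaling (1.02). *Gsdme*, its relative cut by caspase-3, was at 116 and 135 CPM in SP Gr-1hi, 198 and 185 in BM Gr-1hi, 12.1 and 10.0 in SP Gr-1lo, and 7.44 and 7.31 in BM Gr-1lo. *Txnip*, which encodes a thioredoxin-binding protein, was at 1640 and 1043 CPM in SP Gr-1hi, 867 and 620 in BM Gr-1hi and 200 to 217 CPM in Gr-1lo libraries. *Ninj1*, whose product ruptures the membrane of dying cells, rose in Gr-1hi cells by 1.06 (SE 0.14) in BM, below 2-fold without library 9 (0.96), with no filter (0.96) and on quantile-normalized TPM (0.78), and by 1.47 (SE 0.14) in SP.

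The ATP-gated channel gene *P2rx7* and the channel gene *Panx1*, which act upstream of NLRP3, were low in Gr-1hi and high in Gr-1lo cells. *P2rx7* was at 9.25 and 5.29 CPM in SP Gr-1hi, 0.935 and 1.49 in BM Gr-1hi, 41.2 and 46.5 in SP Gr-1lo, and 47.6 and 49.3 in BM Gr-1lo. *Panx1* was at 4.43 and 3.41, 0.897 and 0.908, 18.0 and 19.8, and 19.4 and 21.4 CPM in the same order. In SP against BM Gr-1hi cells *P2rx7* rose by 2.60 (SE 0.31, adjusted p = 0.000882) and *Panx1* by 2.12 (SE 0.20, adjusted p = 0.000319), the latter below 2-fold on quantile-normalized TPM (0.77). *Casp12* rose there as well (2.20, SE 0.51, adjusted p = 0.0147), a call lost with no filter (adjusted p = 0.0731), without library 5 (0.106) or 9 (0.0573), and without both libraries 5 and 7 (0.190). *Csf1r*, itself higher in Gr-1lo cells, rose in the same comparison (1.05, SE 0.19, adjusted p = 0.00434). It belongs to the 7 monocyte markers and was the only one of them called. The sum of the 7 was 1063 and 1185 CPM in SP against 1379 and 1787 CPM in BM Gr-1hi. The part of other cells in these values was not tested.

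**Figure D4:**
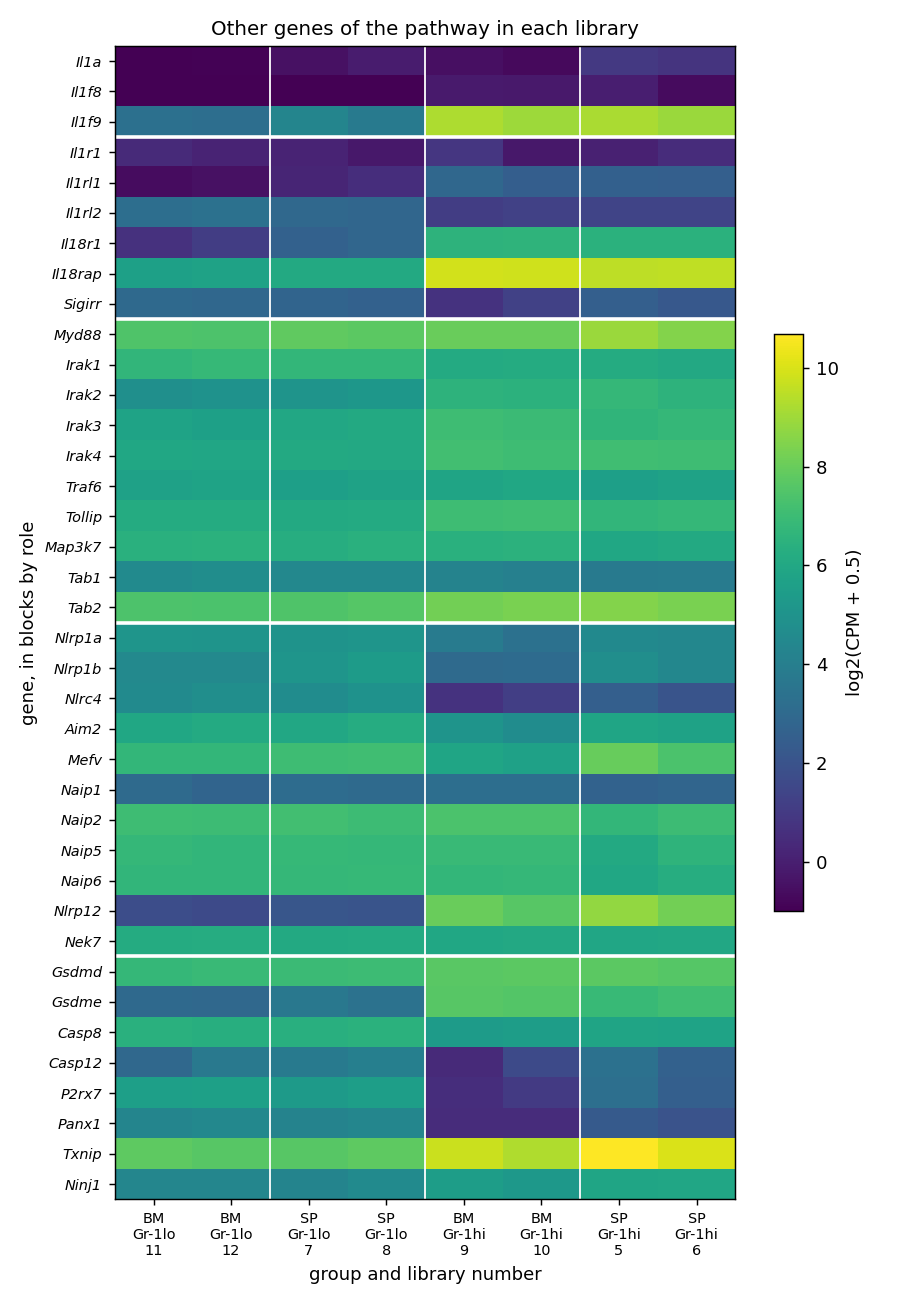
Log2 of CPM plus 0.5 for the 38 tested other genes of the pathway in the 8 libraries. Genes are not centred, with libraries in columns by group and genes in rows by role. *Il1f9*, *Il18r1*, *Nlrp12* and *Gsdme* are higher in the Gr-1hi columns, and *Nlrc4*, *P2rx7* and *Panx1* are higher in the Gr-1lo columns.

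The genes whose levels ran most like those of *Il1b* over the 8 libraries were found among 8597 tested genes with a mean of at least 10 CPM, by the root mean square difference of centred log2 CPM. They were *Cmah* (0.78), *Steap4* (0.83), *St3gal6* (0.86), *Sycp2* (0.87) and the chemokine receptor gene *Cxcr2* (0.91). For *Il18* they were *Sod2* (0.16), *St3gal1* (0.21), *Gm9733* (0.22), the TNF receptor gene *Tnfrsf1b* (0.22) and *Foxn3* (0.23). Libraries of a group share a tissue and a sort, so these values are a description.

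Exons of *Il1b*, *Il1rap*, *Il18bp* and *Pycard* share 25, 552, 80 and 485 bases with a gene on the other strand, of 1907, 11360, 3026 and 3800 exon bases in all, and none of the 10 shares exon bases with a gene on its own strand. The library kit marks strand, but the strand setting of the read counting was not given in the sources used here.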

How the data were processed

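RNA from sorted CD11b+Gr-1hi and CD11b+Gr-1lo cells was sequenced by the study with a stranded mRNA kit. The authors checked and trimmed the reads, aligned them with STAR to GRCm38 with a GENCODE annotation and deposited raw counts per gene from featureCounts. All 8 columns were matched to samples by their titles, with 0 left over.

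Counts of genes kept by filterByExpr were scaled by TMM and fitted with edgeR 4.0.16 (glmQLFit, robust; glmQLFTest) in R 4.3.3, over 4 groups with 4 residual degrees of freedom, and p-values were adjusted by Benjamini-Hochberg over all 17650 genes tested. The thresholds follow the study. Log2 CPM and log2 read ratios used a pseudocount of 0.5. The script was tested on simulated data. Alternatives were DESeq2 1.42.0, RLE scaling, no filter, limma 3.58.1 on quantile-normalized TPM, each library left out, libraries 5 and 7 left out, and only the 4 libraries compared. Exon lengths and coordinates come from another GENCODE release on the same build, with 241 genes unmatched. Promoters are from RefSeq, GRCm38.p6.

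The members, the pathway and marker lists and the alternatives were chosen with earlier results of these data known. Of the pathway list, the text names genes called in any comparison of 2 groups whose mean was 10 CPM or more in any of the 4 groups, and, whatever their values, *Il1a*, *Il1r1*, *Myd88*, *Gsdmd* and *Nlrc4*. One marker gene is not reported here.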

Additional observations from a re-analysis of the deposited data

Results flagged for a closer look

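For 2 members and 8 other genes of the pathway, the difference between Gr-1hi and Gr-1lo cells was itself different between the SP and the BM (edgeR interaction, SP difference minus BM difference, log2 scale, adjusted p at most 0.05 and at least 2-fold). Of the 38 tested pathway genes 5 were called higher and 3 lower, where 7.74% and 2.00% of all tested genes were. Among the members, the interaction was -1.50 for *Il1rn* (adjusted p = 0.0417) and 1.25 for *Il1rap* (adjusted p = 0.00727). Among the other genes, *Il1rl1* (-2.17, adjusted p = 0.0140) and *Sigirr* (1.90, adjusted p = 0.01002) were under 10 CPM in every group and are named here after their values were seen. *Il1rl1* had 8 and 12 reads in BM Gr-1lo, and *Sigirr* had 30 and 46 in BM Gr-1hi. Values of *Il1rl1* and *Sigirr* under the alternatives are not given. The interaction was -2.26 for *Il18r1* (adjusted p = 0.00202) and -1.19 for *Gsdme* (adjusted p = 0.00452), both with a smaller difference in SP. It was 1.50 for *Nlrc4* (adjusted p = 0.0239), 1.57 for *Mefv* (adjusted p = 0.00630), 2.74 for *P2rx7* (adjusted p = 0.00482) and 2.23 for *Panx1* (adjusted p = 0.00248). In *Nlrc4*, *P2rx7* and *Panx1*, which fell in Gr-1hi cells of both tissues, the fall was the smaller one in SP. The *Nlrc4* call was lost on quantile-normalized TPM (0.65), without both libraries 5 and 7 (1.06), and without library 5 (1.07), 7 (1.36), 8 (1.64), 9 (1.11) or 12 (1.40). The *Gsdme* value fell below 2-fold on quantile-normalized TPM (-0.71) and without both libraries 5 and 7 (-0.93), and that of *Panx1* on quantile-normalized TPM (0.91). The changes for *Il1rn* and *Il1rap* are given with those genes above.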

How the results depend on the processing

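Of the member tests under alternatives, 631 kept their direction and side of the threshold, 28 lost and 9 gained a call, and 22 changed sign, all of them in tests that were not called. Of those of the named pathway genes, 642, 29 and 4 did so and 0 changed sign. In SP against BM Gr-1lo cells the 2 member calls became 1 under RLE scaling, with no filter, on quantile-normalized TPM and in the fit of 4 libraries, and 0 to 3 with 1 library left out, and the 3 pathway calls became 1 on quantile-normalized TPM and 1 to 3 with 1 library left out. In SP against BM Gr-1hi cells the 2 member calls became 1 under RLE scaling and without both libraries 5 and 7, and 1 to 3 with 1 library left out, and the 8 pathway calls became 4 on quantile-normalized TPM. The 2 member calls of the interaction became 1 with no filter and on quantile-normalized TPM, and 0 to 2 with 1 library left out, and the 8 pathway calls became 4 on quantile-normalized TPM. The share of all tested genes called under each alternative is not given here, so these counts are no result about the members or the pathway alone. The cause of these changes was not tested.

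Signs turned for tests that were not called. In SP against BM Gr-1lo cells, *Il1r2* (0.44) was -0.40 without both libraries 5 and 7 and ran from -0.39 to 1.34 with 1 library left out, *Il1rap* (0.11) was -0.015 on quantile-normalized TPM and ran from -0.033 to 0.27, and *Nlrp3* (0.01) was -0.048 with RLE, -0.060 with DESeq2 and -0.012 on quantile-normalized TPM and ran from -0.067 to 0.089. In Gr-1hi cells, *Il1r2* (-0.12) was 0.11 without both libraries 5 and 7 and ran from -0.45 to 0.018, and *Il18bp* (0.12) ran from -0.11 to 0.19. In BM Gr-1hi against Gr-1lo, *Casp1* (0.43) was -0.032 on quantile-normalized TPM. In the interaction, *Il1r2* (-0.56) was 0.52 without both libraries 5 and 7 and ran from -1.46 to 0.28, *Il18bp* (-0.42) ran from -1.10 to 0.075, and *Casp1* (0.16) was -0.059 without both libraries 5 and 7 and ran from -0.12 to 0.30. The libraries whose removal turned a sign were 7 and 12 (*Il1r2*, Gr-1lo), 12 (*Il1rap*), 8 and 12 (*Nlrp3*), 5 (*Il1r2*, Gr-1hi), 5 and 9 (*Il18bp*, Gr-1hi), and, in the interaction, 7 (*Il1r2*), 8 and 11 (*Il18bp*) and 5 and 9 (*Casp1*).

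With 2 libraries per group, a library left out leaves an arm with 1, which is then assumed to vary like the others. No paired analysis was possible because the groups share no replicate number and the labels do not tie libraries to mice. The study calls the BM cells autologous, so any pairing of SP and BM libraries was left out of the tests. Counts of 3 reads or fewer, as for *Il1a* in BM Gr-1lo, limit that gene's values.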
